A study of Canis lupus familiaris with 8 samples.

Results

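The 9 genes described here, RPGR, RPGRIP1, CEP290, IQCB1, SPATA7, LCA5, TULP1, NPHP4 and RP2, act in or next to the connecting cilium of photoreceptors and are linked to inherited retinal degeneration. They were chosen by name, with earlier results of these data known. All 9 were among the 12824 genes of the deposited table. Its values are log2 CPM, reads of a gene relative to library size on a log2 scale. Retina of male wild-type Beagles, 31 weeks old, was profiled by total RNA sequencing after 2 preparations, to compare the transcriptome of fixed tissue with that of unfixed tissue. Fresh-frozen retina (4 libraries) came from right eyes, whose eyecups were cut into quadrants and embedded for freezing with no fixative. PFA-fixed retina (4 libraries) came from left eyes kept in 4% paraformaldehyde for 3 h and in 2% for 24 h at 4 °C, then in 15% and 30% sucrose for 24 h each, and frozen in the same medium. A micro-scale column kit served for the unfixed RNA. The fixed RNA was taken up with a kit for paraffin-embedded tissue, with proteinase K for 18 h at 56 °C and a second DNase step. One stranded low-input total RNA kit was used for all libraries. All dogs were wild-type, so no disease allele of these genes was compared. Fixation, eye side and extraction kit cannot be told apart, and the labels do not say which libraries share a dog. The p-values therefore measure the spread between these 8 libraries.

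The light-sensitive outer segment of a photoreceptor is a modified cilium, joined to the cell body by a thin stalk, the connecting cilium, which corresponds to the transition zone of other cilia. Every outer segment protein passes through this stalk, and proteins anchored there form a gate between the microtubules and the membrane. Loss of gate proteins leads to retinitis pigmentosa, cone-rod dystrophy or Leber congenital amaurosis, the early-onset form of retinal blindness, and several of them are also lost in syndromes with kidney disease. In dogs, RPGR variants are known as a cause of X-linked progressive retinal atrophy, and variants of RPGRIP1 and NPHP4 are linked to cone-rod dystrophies.

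Effective depth, which includes the authors' scaling, was estimated from the spacing of the low values. It was 21650000 to 22770000 reads in fresh-frozen and 11030000 to 15400000 in PFA-fixed libraries. Depth and reads are approximate, since only 60.9% to 67.3% of values worth up to 20 reads fitted whole reads. The 9 genes lay far above the lowest value of the table (0.115 CPM): the thinnest, IQCB1, had an estimated 276 to 339 reads in fresh-frozen and 202 to 280 in fixed libraries. Marker shares below are of the summed CPM of all genes of the table in each library. Markers of photoreceptors were present in both preparations, with 18 rod markers together taking 3.06% to 3.48% in fresh-frozen and 3.08% to 3.43% in fixed libraries. Of these rod genes 8 were called higher and 4 lower in fixed retina. Over all genes 33.9% were called higher and 34.7% lower, for comparison with this and the following marker counts. Markers of tissue around the neural retina moved with the preparation. All 10 markers of pigment epithelium and melanin fell, from 0.326% to 0.466% of the summed CPM down to 0.00895% to 0.0165%. All 8 markers of sclera and fibroblasts fell too, from 0.797% to 1.11% down to 0.0179% to 0.0202%. Vascular markers (9 of 9) and microglial markers (7 of 8) were also called lower, with median changes of -2.66 and -2.79 on the log2 scale. Of 8 Müller glia markers 5 were called lower (median -0.75), among them RLBP1, which is also counted with the pigment epithelium. Of 11 cone markers 3 were called higher and 1 lower. None of the pigment epithelium, scleral or vascular markers stood at the lowest value of the table in any library. The part of these tissues in the results below was not tested, and in bulk tissue fewer cells of a type cannot be told apart from less RNA per cell.

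All 9 genes were higher in PFA-fixed than in fresh-frozen retina. TULP1 rose 4.53-fold, RPGR 3.55-fold, CEP290 2.69-fold and RPGRIP1 2.62-fold. NPHP4 rose 1.71-fold, LCA5 1.57-fold and IQCB1 1.41-fold, and RP2 and SPATA7 rose 1.21-fold and 1.16-fold. Each was called with limma at a Benjamini-Hochberg adjusted p under 0.05 over all genes, and each had its 4 fixed libraries above its 4 fresh-frozen ones. Over the whole table, 33.9% of genes were called higher and 34.7% lower, and 31.3% had all fixed libraries above all fresh-frozen ones. The median change of the 9 genes was 0.77 on the log2 scale, against -0.018 for all genes. Of the 9, 4 were called at 2-fold or more, where 10.6% of all genes were. The same 4 passed a test against a minimum rise of 1.5-fold, which 11.9% of all genes passed. Rises made up 49.4% of all calls with the deposited scaling, 32.5% after the libraries were centred on their mean rod marker level, and 18.8% with the median level. Levels are not given per transcript length, so the values of different genes are not ranked against each other.

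**Figure D1:**
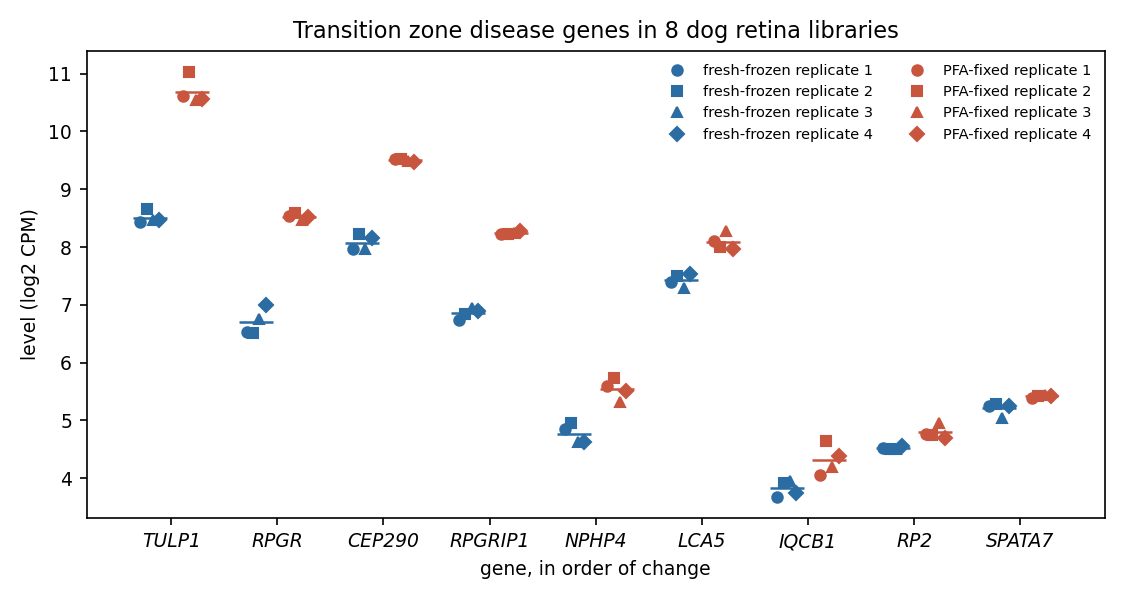
Level of each gene in each library on the log2 CPM scale, genes ordered from the largest to the smallest change; blue symbols are the 4 fresh-frozen and red symbols the 4 PFA-fixed libraries, symbol shapes mark the replicate number, and bars mark the group means. In each of the 9 genes the red symbols lie above the blue ones, with a wide gap from TULP1 to RPGRIP1 and a gap of 0.094 for SPATA7.

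RPGR, the X-linked retinitis pigmentosa GTPase regulator, carries a domain that resembles a guanine nucleotide exchange factor and is held in the connecting cilium by its partners. Its fresh-frozen libraries stood at 6.53, 6.51, 6.76 and 6.99 log2 CPM for replicates 1 to 4, and its fixed libraries at 8.53, 8.59, 8.46 and 8.52. The lowest fixed library was 1.47 above the highest fresh-frozen one, and the fixed libraries lay closer together. The change was 1.83 ± 0.098 on the log2 scale (SE; limma adjusted p = 1.96e-08), and 313 genes of the table had a larger rise. The table holds 1 value per gene, so the photoreceptor isoform of RPGR with its repetitive final exon was not separated from the constitutive one.

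RPGRIP1 is the scaffold that anchors RPGR to the axoneme of the connecting cilium. It was at 6.73, 6.84, 6.94 and 6.90 log2 CPM in fresh-frozen replicates 1 to 4 and at 8.23, 8.22, 8.24 and 8.27 in the fixed ones. Its 4 fixed values spanned 0.045, the narrowest range of any of the 9 genes in fixed retina. It rose by 1.39 ± 0.061 (SE; limma adjusted p = 4.65e-09). In the deposited scaling RPGRIP1 thus rose by less than its client RPGR, by 0.44 on the log2 scale when the genes were compared within each library.

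SPATA7 binds RPGRIP1 and is needed to keep the RPGR complex in the distal connecting cilium. It gave the smallest rise, with fresh-frozen libraries at 5.25, 5.29, 5.04 and 5.24 log2 CPM and fixed libraries at 5.39, 5.42, 5.44 and 5.42. The groups were separated by 0.094, less than the 0.25 that the fresh-frozen libraries spanned. The change was 0.21 ± 0.079 (SE; limma adjusted p = 0.0313). This call ended without fresh-frozen replicate 3, the lowest library of the gene (0.16, limma adjusted p = 0.0896), and without any single fixed library (0.21 to 0.22, limma adjusted p = 0.0514 to 0.0635).

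NPHP4, or nephroretinin, is a nephronophthisis protein of the transition zone that binds RPGRIP1. Its fresh-frozen libraries were at 4.85, 4.95, 4.62 and 4.63 log2 CPM and its fixed libraries at 5.59, 5.73, 5.31 and 5.51. All fixed libraries were higher, by at least 0.36, and both groups varied to a similar extent (SD 0.17 and 0.18, n = 4 each). NPHP4 rose by 0.77 ± 0.11 (SE; limma adjusted p = 6.95e-05).

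CEP290 forms the links that tie the microtubules of the transition zone to the ciliary membrane, and its loss is a frequent cause of Leber congenital amaurosis. Its levels were 7.96, 8.22, 7.97 and 8.16 log2 CPM in fresh-frozen and 9.53, 9.52, 9.49 and 9.48 in fixed libraries. The fixed libraries fell within 0.058 of each other, against 0.25 for the fresh-frozen ones. CEP290 rose by 1.43 ± 0.069 (SE; limma adjusted p = 9.87e-09), and 5.05% of all genes had a larger rise.

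IQCB1, also called nephrocystin-5, is a calmodulin-binding partner of CEP290 whose loss causes Senior-Løken syndrome, in which retina and kidney are affected. It was at 3.68, 3.92, 3.95 and 3.74 log2 CPM in fresh-frozen and at 4.05, 4.65, 4.19 and 4.39 in fixed libraries. Its fixed libraries were the most dispersed of the 9 genes (SD 0.26, n = 4), and the gap between the groups was 0.10. IQCB1 rose by 0.50 ± 0.14 (SE; limma adjusted p = 0.00709), and by 0.39 to 0.59 with single libraries left out. Within libraries, CEP290 gained 0.93 on its partner IQCB1.

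TULP1, a tubby-like protein, binds phosphoinositides and takes part in the transport of opsins and other proteins from the inner to the outer segment. It was the gene of the set with the largest rise, from 8.44, 8.65, 8.46 and 8.47 log2 CPM in fresh-frozen to 10.61, 11.03, 10.55 and 10.56 in fixed libraries. On the linear scale this was 348 to 403 CPM against 1490 to 2090 CPM. Replicate 2 was the highest library in both groups, and the gap between the groups (1.89) exceeded the range of the fixed libraries (0.49). TULP1 rose by 2.18 ± 0.11 (SE; limma adjusted p = 9.70e-09), and 1.19% of all genes had a larger rise.

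LCA5 encodes lebercilin, an axonemal protein that binds the intraflagellar transport machinery and is lost in a form of Leber congenital amaurosis. It was at 7.39, 7.49, 7.29 and 7.53 log2 CPM in fresh-frozen and at 8.10, 8.0, 8.27 and 7.96 in fixed libraries. The lowest fixed library lay 0.43 above the highest fresh-frozen one. LCA5 rose by 0.65 ± 0.081 (SE; limma adjusted p = 1.95e-05).

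RP2 is the GTPase-activating protein of ARL3, the small GTPase that releases lipid-modified cargo in the cilium, and like RPGR its gene is X-linked. Its fresh-frozen libraries were nearly equal, at 4.52, 4.51, 4.51 and 4.55 log2 CPM, and its fixed libraries stood at 4.76, 4.75, 4.96 and 4.70. The fixed libraries were higher by at least 0.15, with replicate 3 above the other 3. RP2 rose by 0.27 ± 0.089 (SE; limma adjusted p = 0.0175). This call ended without PFA-fixed replicate 3 (0.21, limma adjusted p = 0.0568).

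The size of the rise, and for the smallest rises its direction, depended on the scaling between libraries. Centring each library on the mean of the 18 rod markers lowered every change by 0.24, and centring on their median lowered it by 0.48. These scalings put the median change of all genes at -0.25 and -0.50, and that of the 9 genes at 0.54 and 0.29. TULP1, RPGR, CEP290, RPGRIP1 and NPHP4 were called higher under both, with 1.70, 1.34, 0.94, 0.90 and 0.29 under the rod median. LCA5 was called with the rod mean (0.42) and not with the rod median (0.17, limma adjusted p = 0.123). IQCB1 was called with neither (0.26 and 0.016; limma adjusted p = 0.141 and 0.934). RP2 stood at 0.034 with the rod mean and -0.21 with the rod median, and was not called in either. SPATA7 turned to -0.024 with the rod mean (limma adjusted p = 0.844) and was called lower with the rod median (-0.27, limma adjusted p = 0.0322). After centring on the rod level, 6 of the 9 genes were therefore called higher with the mean, and 5 higher and 1 lower with the median. Of all 12824 genes, 2777 were called higher and 5760 lower with the rod mean, and 1726 higher and 7432 lower with the rod median. The rod median is the middle level of the 18 markers in each library. Its shift of 0.48 exceeded the median change of the rod markers themselves, which was 0.15. The smallest of the 9 deposited rises, 0.21 ± 0.079 for SPATA7 (SE), lay between this 0.15 and the rod mean shift of 0.24. Whether the 9 genes rose by more than the rod markers was not tested. Quantile normalization gave 9 calls, all higher, where 4872 of the 12824 genes were called higher and 4008 lower.

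**Figure D2:**
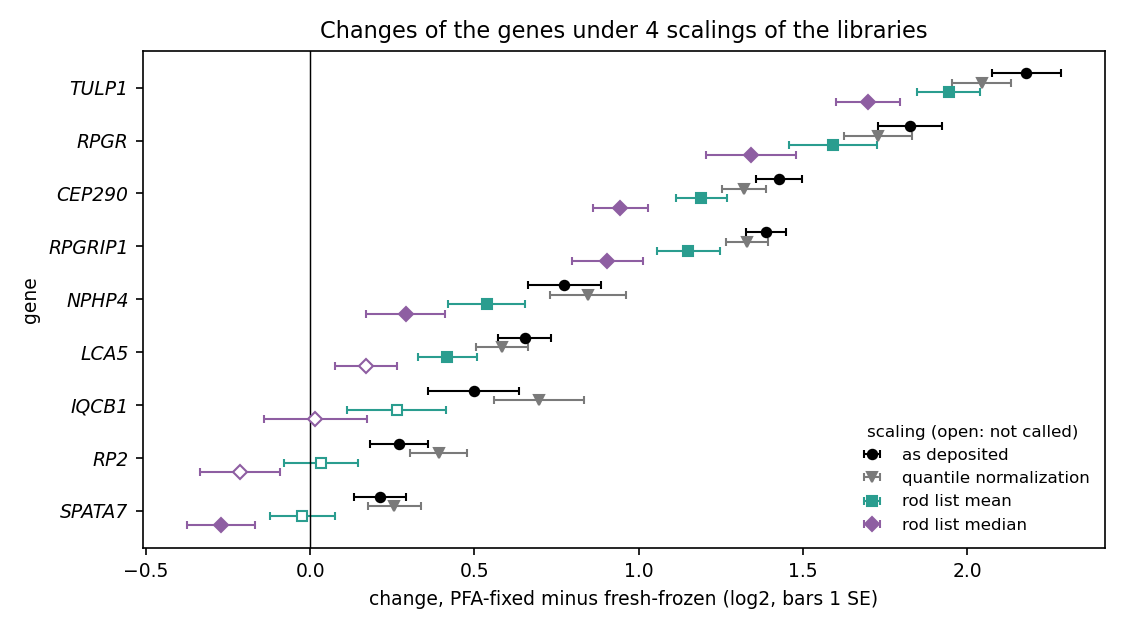
Change of each gene (PFA-fixed minus fresh-frozen, log2 scale; points are limma estimates, bars 1 SE) with the deposited values, after quantile normalization and after centring on the rod list mean or median; filled symbols are called at an adjusted p under 0.05. The upper 5 genes stay filled and above 0 in all 4 scalings, while RP2 and SPATA7 lie on either side of 0.

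Differences between genes within a library do not change when a library is centred on another value, so each pair of the 9 genes was compared in that way. In 27 of 36 pairs the within-library difference changed between the preparations without overlap of the groups (exact two-sided permutation p = 0.0286 each, the smallest that 70 assignments allow; adjusted p = 0.0381 over the 36 pairs). TULP1 gained most on SPATA7 (1.97) and RP2 (1.91). Against RPGR, TULP1 gained 0.35, which did not pass (exact permutation p = 0.114). The 2 X-linked genes changed unequally: RPGR stood 2.17 ± 0.21 above RP2 in fresh-frozen and 3.73 ± 0.16 above it in fixed libraries (SD, n = 4 each). For CEP290 and RPGRIP1 no difference was found, with CEP290 higher by 1.22 ± 0.14 in fresh-frozen and by 1.26 ± 0.044 in fixed libraries (SD, n = 4 each; exact permutation p = 0.714). All 20 pairs of 1 gene that rose at least 2-fold and 1 that rose less were unequal, a split made on these same changes. Among the 10 pairs of the 5 genes with smaller rises, NPHP4 against SPATA7 (0.56), LCA5 against SPATA7 (0.44) and LCA5 against RP2 (0.38) were unequal. RP2 and SPATA7, with 0.058, were not (exact permutation p = 0.429). Quantile normalization, which is not 1 shift per library, left the same 27 pairs unequal and turned the sign of 2 others, CEP290 against RPGRIP1 (-0.0094) and LCA5 against IQCB1 (-0.11). A pair that misses the threshold is not shown to have changed alike.

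**Figure D3:**
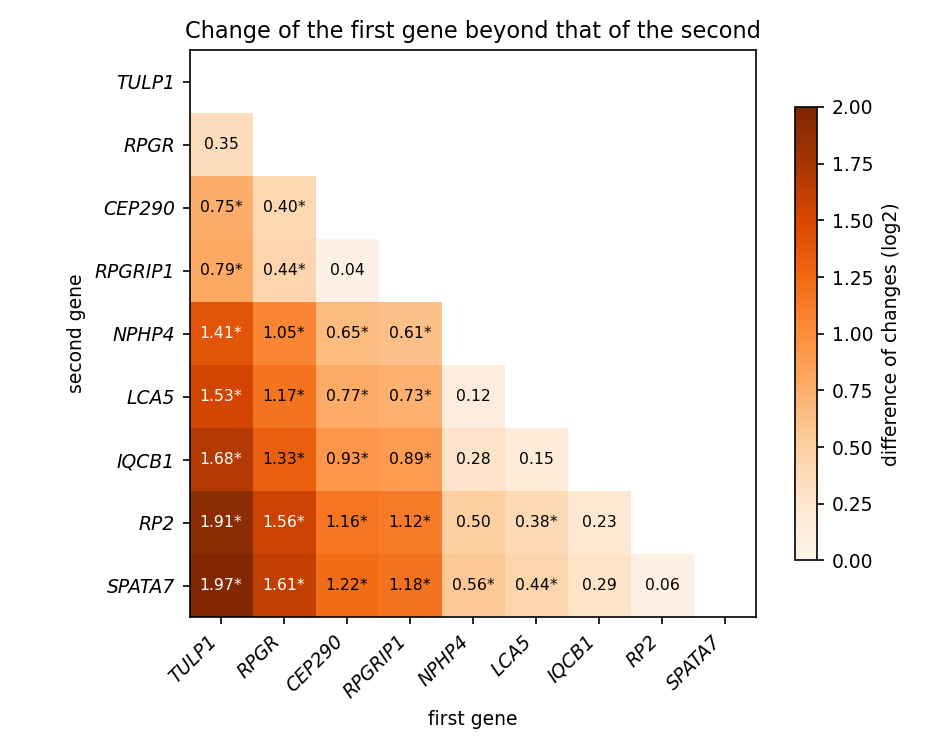
Difference between the changes of 2 genes, measured within libraries: the rise of the column gene beyond that of the row gene on the log2 scale, with genes ordered by change, darker for larger values. Stars mark the 27 of 36 pairs with an adjusted exact p under 0.05; the 4 left columns are starred except for TULP1 against RPGR and CEP290 against RPGRIP1.

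The spread between libraries was small for these genes. The SD over 4 libraries had a median of 0.11 in fresh-frozen and 0.12 in fixed retina, against 0.16 and 0.15 for all genes. RPGR varied most in fresh-frozen retina (SD 0.22) and little after fixation (0.053). CEP290, RPGRIP1 and SPATA7 went the same way, with SDs of 0.13, 0.092 and 0.11 in fresh-frozen and of 0.026, 0.019 and 0.022 in fixed libraries. RP2, TULP1 and IQCB1 varied more in fixed libraries, with 0.12, 0.23 and 0.26, against 0.021, 0.099 and 0.13 in fresh-frozen ones. Differences in spread were not tested.

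Other genes of the transition zone are grouped by their protein modules. Over all genes, 33.9% were called higher and 34.7% lower, for comparison with the list counts below. With the rod median, 1726 of the 12824 genes were called higher and 7432 lower, for comparison with the list counts under that scaling. Of 14 measured Meckel and Joubert genes, whose products form the membrane complex of the transition zone, 11 rose and 0 fell (median change 0.61, or 0.13 with the rod median, where 5 were called higher and 1 lower). MKS1 rose by 1.70 ± 0.11 and TMEM218 by 1.14 ± 0.12 (SE; limma adjusted p = 7.19e-08 and 6.00e-06). AHI1, which encodes jouberin, rose by 0.64, and was not called with the rod median (0.16). CSPP1, a spindle and cilium gene, differed by 0.21 and was not called (limma adjusted p = 0.060). CSPP1 was called higher when libraries were centred on the median of all genes (0.29) and lower with the rod median (-0.27). TMEM216 and TMEM17, both near 1.2 log2 CPM in fresh-frozen retina, were not called either, other than after quantile normalization (0.86 and 0.58). TCTN2 and B9D2 were not among the genes of the table.

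Of the 6 other nephronophthisis genes, 3 rose and 2 fell, where 33.9% and 34.7% of all genes did. Their median was 0.36 (-0.13 with the rod median). NEK8 was not called with the rod mean (0.16) or median (-0.087). RPGRIP1L, the paralog of RPGRIP1, rose by 0.82 ± 0.22 (SE; limma adjusted p = 0.00568) and was not called with the rod median (0.34). Inversin (INVS), which marks a compartment above the transition zone, fell by 0.65. ANKS6, of the same compartment, fell by 0.61, and its call ended after quantile normalization (-0.38).

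Of 18 genes of the basal body, the centriole-derived base of the cilium, and its rootlet, 15 rose and 0 fell (median 0.42, or 0.18 with the rod mean and -0.064 with the rod median, where 5 were called higher and 1 lower). The distal appendage genes FBF1 and CEP164 rose by 1.61 ± 0.12 and 1.11 ± 0.18 (SE; limma adjusted p = 2.59e-07 and 0.000151). CEP250, a centrosome linker gene linked to retinal dystrophy, rose by 0.99 and PCM1, of the centriolar satellites, by 0.32. PCM1 was not called after quantile normalization (0.15) or with the rod mean (0.087) or median (-0.16). Of 6 measured retinal degeneration genes of the axoneme, 5 rose and 0 fell (median 0.55, or 0.072 with the rod median). The ciliary kinase gene MAK rose by 1.71 ± 0.11 (SE; limma adjusted p = 6.31e-08). POC5, a centriolar gene, rose by 0.87. RP1, the microtubule-binding protein of the outer segment axoneme, rose by 0.33, with no call after quantile normalization (0.18) or under the rod mean (0.099) or median (-0.15).

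Of 9 partners of RPGR, 4 rose and 4 fell, where 33.9% and 34.7% of all genes did. The median was -0.17 (-0.65 with the rod median). Under the rod median 1 was called higher and 5 lower, where 1726 and 7432 of all 12824 genes were. The cohesin gene SMC1A rose by 1.5 ± 0.068 (SE; limma adjusted p = 5.93e-09). TTLL5, the enzyme that glutamylates RPGR, rose by 0.41, and was not called with the rod mean (0.17) or median (-0.073). RAB8A, a GTPase of ciliary membrane traffic, fell by 1.15 ± 0.12 (SE; limma adjusted p = 3.23e-06). Gelsolin (GSN), an actin-severing protein, fell by 5.83 ± 0.18 (SE; limma adjusted p = 2.99e-10), beside the fall of all 8 scleral and fibroblast markers. Gelsolin is also made by connective tissue cells, whose part in this fall was not tested.

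Genes of the ARL3 cycle, in which RP2 acts, had a median change of -0.23. Of 7, 2 rose and 4 fell, where 33.9% and 34.7% of all genes did. ARL3 rose by 0.40, and was not called with the rod mean (0.17) or median (-0.081). Of the genes for carriers and effectors, ARL2BP fell by 0.80, UNC119B by 0.71 and PDE6D by 0.23. The call of PDE6D ended when libraries were centred on the median of all genes (-0.15). UNC119, the abundant carrier of myristoylated transducin, differed by -0.12 and was not called (limma adjusted p = 0.137), and was called lower after quantile normalization (-0.19) and with the rod mean (-0.35) and median (-0.60).

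Of the tubby-like relatives of TULP1, 2 were measured. TUB and TULP4 rose by 0.19 and 0.20 (limma adjusted p = 0.0264 and 0.0133). Neither was called after quantile normalization (0.078 and 0.14) or with the rod mean (-0.045 and -0.036), and both were called lower with the rod median (-0.29 and -0.28). TULP2 and TULP3 were not among the genes of the table. Of 12 other Leber congenital amaurosis genes, 7 rose and 5 fell, where 33.9% and 34.7% of all genes did. Their median was 0.26 (-0.22 with the rod median). RD3, an inhibitor of the photoreceptor guanylate cyclases, rose by 2.37 ± 0.093 (SE; limma adjusted p = 2.07e-09). The photoreceptor transcription factor gene CRX rose by 0.47 (-0.016 and not called with the rod median) and IMPDH1 by 0.35. IMPDH1 was not called after quantile normalization (0.14) or with the rod mean (0.11) or median (-0.14). The pigment epithelium genes LRAT and RPE65 fell by 5.27 and 4.89. Differences between the 9 genes and these lists were not tested.

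**Figure D4:**
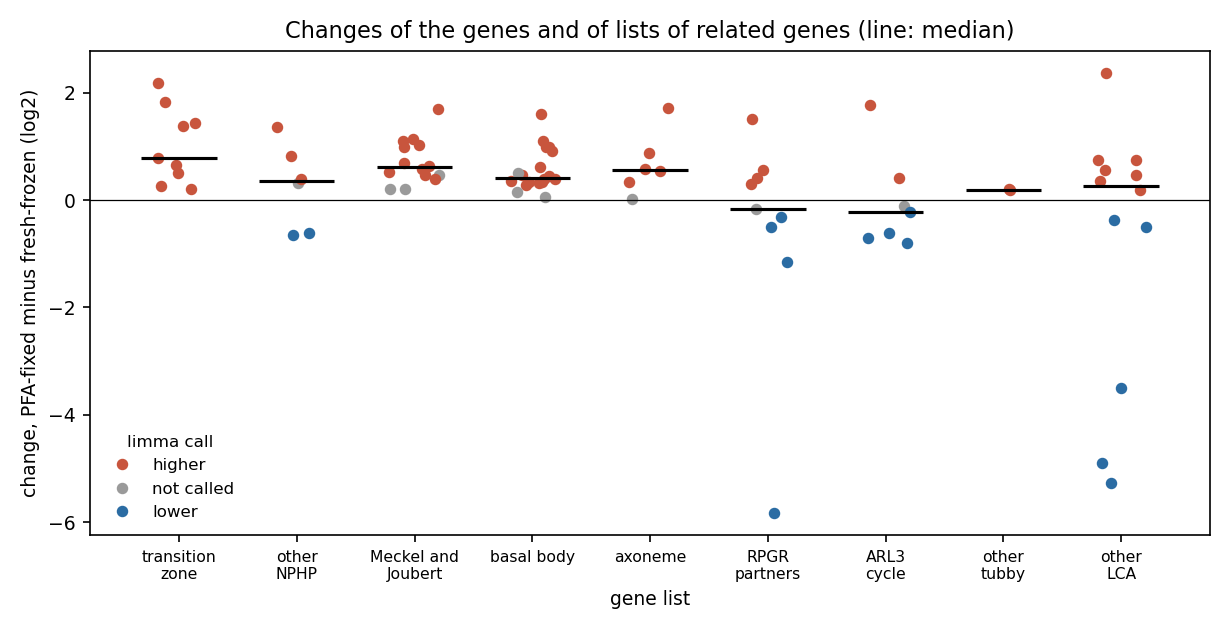
Change of every measured gene of the set and of each related list (PFA-fixed minus fresh-frozen, log2 scale), 1 point per gene, coloured by its limma call with the deposited scaling; black lines are medians, and points are spread sideways for visibility. All points of the transition zone set are called higher, while the RPGR partners, the ARL3 cycle and the other Leber congenital amaurosis (LCA) genes hold points on both sides of 0.

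Overlapping genes can share reads where counting ignores strand, which the sources used here do not state. In the assembly UU_Cfam_GSD_1.0, CEP290 overlaps its protein-coding neighbours C15H12orf29 and TMTC3, and RPGRIP1 overlaps SUPT16H. C15H12orf29 fell by 0.26, TMTC3 differed by 0.19 (limma adjusted p = 0.0825) and SUPT16H rose by 0.40, against rises of 1.43 and 1.39 for the genes they overlap. Rises of under 0.24 turn negative with the rod mean, and those of under 0.48 with the rod median. Noncoding genes overlap LCA5 (2) and RPGRIP1 (1). Around TULP1, the neighbour TEAD3 fell by 0.56, and around SPATA7 both neighbours, KCNK10 and PTPN21, fell, by 1.68 and 0.26. Beside IQCB1, the neighbours GOLGB1 and EAF2 rose by 0.51 and 1.41.

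The genes whose levels followed the mean profile of the 9 most closely were EML3, HNRNPD, SRRM2, PLCH2 and IFT172, with Pearson r of 0.9995 to 0.9986 across the 8 libraries. These values are dominated by the difference between the preparations, and 267 genes had an r over 0.99. EML3, a microtubule-associated protein gene, rose by 1.08, the RNA-binding protein gene HNRNPD by 1.19 and the splicing factor gene SRRM2 by 1.5. The phospholipase gene PLCH2 rose by 1.04. IFT172, an intraflagellar transport gene that is itself linked to retinal degeneration, was at 6.81 log2 CPM in fresh-frozen (SD 0.075) and 8.47 in fixed retina (SD 0.085), a rise of 1.66 ± 0.065 (SE; limma adjusted p = 2.07e-09).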

How the data were processed

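The tools of the authors were kallisto 0.48.0, edgeR and limma, per the submitters' processing notes, which state no roles. How transcripts were referenced, stranded and filtered is not given in the sources used here. Values are deposited as log2 CPM, scaled between libraries by the authors. Between 60.9% and 67.3% of values worth up to 20 reads were whole multiples of 1 read (tolerance 0.1, where chance gives 20%), so reads were not recovered and no count test was run.

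Changes are PFA-fixed minus fresh-frozen, fitted with limma 3.58.1 (intensity trend, group as the only term, R 4.3.3) on all 12824 genes, with Benjamini-Hochberg adjustment at 0.05. The fit was tested on simulated data. The 9 genes and the lists were chosen with earlier results of these data known. Named from each list were its 2 most abundant genes, the 2 called genes with the largest change, and others where counted; some genes that this rule takes are not reported here. Genes most alike were the 5 with the highest Pearson r to the mean of the 9 centred profiles. Alternatives were each library left out, the replicate block, 4 other scalings, a minimum mean of 3 log2 CPM, log2(CPM + 1), limma without trend and a test against 1.5-fold. Gene neighbours come from RefSeq's table of UU_Cfam_GSD_1.0.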

Additional observations from a re-analysis of the deposited data

Results flagged for a closer look

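TULP1 stood apart in replicate 2 of both preparations. In fresh-frozen replicate 2 it was at 8.65 log2 CPM, with the other 3 libraries between 8.44 and 8.47, and in PFA-fixed replicate 2 it was at 11.03, with the other 3 between 10.55 and 10.61. The gap to the nearest library was 0.849 and 0.875 of the group's range, above Dixon's 95% critical value for 4 libraries. Among 18 groups examined (9 genes in 2 preparations), chance flags about 1 in 20. Replicate 2 was the highest fresh-frozen library for 4 of the 9 genes and the highest fixed library for 4. The change of TULP1 was 2.23 without fresh-frozen replicate 2 and 2.06 without PFA-fixed replicate 2.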

How the results depend on the processing

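The call of all 9 genes as higher held with each single library left out other than as given for SPATA7 and RP2, and with quantile normalization, median centring, the minimum level, log2(CPM + 1) and limma without trend. The rod list mean and median turned SPATA7 to -0.024 and -0.27, and the median turned RP2 to -0.21. With the rod list median, 5 genes were called higher and 1 lower, and the test against 1.5-fold, added after seeing the data, called 4. Of 74 genes in the related lists, 49 were called higher and 15 lower. These counts were 31 higher and 17 lower with the rod mean, 17 and 23 with the rod median, and 15 and 6 with the 1.5-fold test. Among all genes, 4353 were called higher and 4451 lower. With the rod mean 2777 were higher and 5760 lower, with the rod median 1726 and 7432, and with the 1.5-fold test 1530 and 1813. With the replicate block the calls numbered 4336 higher and 4463 lower, the call of SPATA7 ended (limma adjusted p = 0.0538), and 30 pairs were unequal with limma. The deviations of each library from its group mean were correlated across genes. Same-numbered libraries gave r of 0.0496, 0.149, -0.0893 and 0.224, and differently numbered ones gave -0.27 to 0.219. The numbers were therefore not taken to pair the libraries. Without single libraries 25 to 28 pairs were unequal, and the same 27 were unequal after quantile normalization, an alternative added after seeing the data. Depth limits the low genes: a change near the lowest value of the table is understated.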
